A study of Mus musculus with 12 samples.

Results

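The 35 genes described here encode proteins that copy DNA or carry out mitosis, and they were followed in sorted mouse spermatogonia of WT and Tet1KO animals at 3 and 11 months of age. They were taken by symbol from a list of cell cycle genes, by a rule that uses no measured value. The list itself was chosen with earlier results of these data known. All 35 were found among the 53715 genes of the count table. By phase, 15 act in S phase, when DNA is copied, and 20 in G2 and mitosis, when chromosomes are condensed and separated. Each of the 4 groups (WT at 3 months, Tet1KO at 3 months, WT at 11 months, Tet1KO at 11 months) had 3 libraries. All animals shared the strain background C57BL6/129. A library came from 1000 cells isolated by flow cytometry, and its cDNA was made by Smart-seq2, which copies whole transcripts from few cells. Tet1 encodes an enzyme that oxidises 5-methylcytosine in DNA. The labels give neither the Tet1 allele, nor the cells in which it is lost, nor the surface markers of the sort. They also leave unsaid whether replicates are different animals, and the p-values here therefore cover only the spread among these libraries, some of which may be technical.

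Spermatogonia are the mitotic germ cells of the testis: undifferentiated cells renew themselves, and differentiating cells divide several more times before a last round of DNA replication leads into meiosis. Replication is licensed by loading the MCM helicase with the help of Cdc6 and starts when cyclin E kinase, Cdc45 and the GINS complex activate that helicase. Entry into mitosis follows when cyclin B activates Cdk1. Genes of the first set are classic targets of E2F factors, and many genes of the second are repressed early in the cycle through promoter elements called CHR (cell cycle genes homology region), often beside CCAAT boxes bound by NF-Y.

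Library totals ran from 8325159 to 18223645 counts. On the first principal component, which held 39% of the variance, WT replicate 1 and Tet1KO replicate 2 of 3 months lay apart from the other libraries at -130.7 and -121.2, against -38.9 to 55.9. Germ cell transcripts were high throughout, with Dazl at 1650 to 2500 CPM (TMM-scaled counts relative to the library total) and Ddx4 at 261 to 386 CPM. The spermatogonial gene Kit lay at 62.1 to 110 CPM. Markers of undifferentiated cells differed in level. Sall4 lay at 45.2 to 104 CPM, Gfra1 at 14 to 40.6 CPM, Zbtb16 at 1.83 to 13.7 CPM and Bcl6b at 0.192 to 4.34 CPM. Transcripts of later stages were present in every library, with the meiotic gene Sycp3 at 463 to 2100 CPM and the spermatid gene Prm1 at 77.7 to 747 CPM. Tet1 itself was near the detection limit in all groups, at 0 to 1.64 CPM in 3-month and 0.0631 to 0.933 CPM in 11-month WT libraries and at 0.593 to 1.73 CPM and 0.0616 to 1.71 CPM in those of Tet1KO. Counts over the whole gene therefore did not separate the genotypes and do not check the labels, by which the groups are named. In such bulk samples fewer cells of a type and less RNA per cell cannot be told apart.

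Motifs known from genes of each phase can be read in the promoters, and 6 promoters are printed before the values. RefSeq promoter windows (GRCm38.p6), which run from 250 bases before to 50 bases after the start of transcription, were matched for 12 of the 15 S phase and 17 of the 20 mitosis genes, all but Ccne2, Mcm4, Gins2, Ccna2, Aurkb and Tpx2. The following motifs were searched on both strands: CCAAT, the CHR letters TTTGAA, and the E2F forms TTTGGCGC, TTTCGCGC, TTTCCCGC and TTTGCCGC. Each sequence below is the 160 bases before the start, read 5′ to 3′ on the gene's strand, with any of these motifs in capitals. Mcm5 (chr8:75109349-75109508, plus strand) and Mcm6 (chr1:128359706-128359865, minus strand) show E2F forms, which on opposite strands overlap into a single run of capitals. Cdk1 (chr10:69352913-69353072, minus strand), Top2a (chr11:99024190-99024349, minus strand) and Mki67 (chr7:135716380-135716539, minus strand) show the CHR letters, and Aurka (chr2:172370571-172370730, minus strand) is the gene whose level varied most between libraries.
Mcm5: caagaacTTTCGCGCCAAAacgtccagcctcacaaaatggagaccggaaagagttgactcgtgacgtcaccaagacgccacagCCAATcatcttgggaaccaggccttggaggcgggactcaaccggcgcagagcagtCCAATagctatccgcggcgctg
Mcm6: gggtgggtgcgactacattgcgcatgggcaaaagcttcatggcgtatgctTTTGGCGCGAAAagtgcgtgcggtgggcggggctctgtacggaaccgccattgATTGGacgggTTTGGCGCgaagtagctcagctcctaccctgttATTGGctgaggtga
Cdk1: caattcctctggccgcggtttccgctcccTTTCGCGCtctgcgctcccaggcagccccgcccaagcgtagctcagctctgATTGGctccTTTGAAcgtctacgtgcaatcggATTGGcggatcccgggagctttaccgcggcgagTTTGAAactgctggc
Top2a: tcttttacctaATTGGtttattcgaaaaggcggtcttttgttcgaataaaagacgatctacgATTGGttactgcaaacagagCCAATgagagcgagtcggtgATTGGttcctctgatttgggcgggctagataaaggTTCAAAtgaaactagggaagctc
Mki67: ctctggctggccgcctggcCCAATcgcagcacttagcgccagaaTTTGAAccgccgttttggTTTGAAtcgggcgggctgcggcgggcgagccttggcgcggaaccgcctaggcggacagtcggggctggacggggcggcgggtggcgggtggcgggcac
Aurka: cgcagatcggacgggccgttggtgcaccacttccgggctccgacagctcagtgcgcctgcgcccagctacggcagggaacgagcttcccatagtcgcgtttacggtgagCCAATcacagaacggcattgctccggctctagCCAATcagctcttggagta
In the printed stretch of Cdk1 the CHR letters stood 71 and 15 bases before the start, with CCAAT letters on the opposite strand 80 and 48 bases before it and an E2F form at 131. The Top2a stretch held CCAAT letters at 149, 98, 78 and 58 bases and the CHR letters, on the opposite strand, at 23. In Mki67 the CHR letters stood at 116 and 98 bases. In Aurka they lay 32 bases after the start, outside the printed stretch, while CCAAT letters stood at 51 and 19 bases before it. The promoter of Ccnb1 held CCAAT but no CHR letters in this window.

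Across the list, TTTGAA was found in 12 of 17 mitosis promoters (70.6%) and 2 of 12 S phase promoters (16.7%), against 20.2% of all 27025 genes with a window. E2F forms showed the other distribution, in 5 of 12 S phase promoters (41.7%), those of Mcm3, Mcm5, Mcm6, Mcm7 and Cdc6, and in 1 of 17 mitosis promoters (5.88%), that of Cdk1, against 2.6% of all genes. CCAAT stood in 15 of 17 mitosis (88.2%) and 9 of 12 S phase promoters (75.0%), against 41.1%. Among other genes of these pathways, TTTGAA was in 18 of 29 mitosis (62.1%) and 3 of 24 S phase promoters (12.5%). There the E2F forms were in 3 mitosis (10.3%) and 7 S phase promoters (29.2%), a smaller contrast than in the list. CCAAT was in 17 (58.6%) and 14 (58.3%), alike in both phases. A match is a description of letters and not a bound site, and the data hold no binding measurement.

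**Figure D1:**
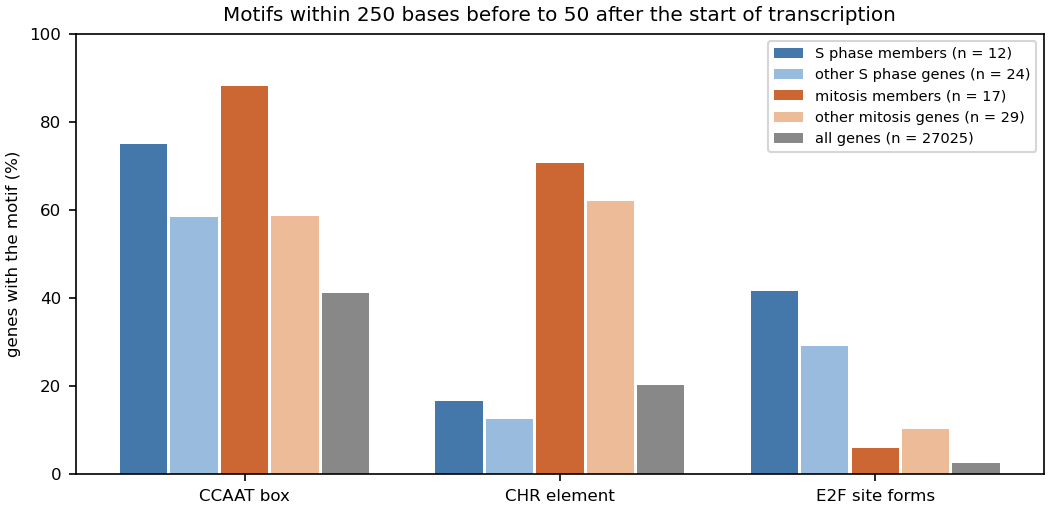
Share of genes (%, y axis) whose promoter window holds each motif (x axis), for S phase and mitosis genes of the list, other genes of the same pathways and all genes with a window. The CHR letters were found in 70.6% of mitosis and 16.7% of S phase promoters, and the E2F forms in 5.88% and 41.7%.

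All 35 genes passed the filter on low counts. To compare genes, levels were divided by exon length (CPM per kb), the union of all annotated exons of the gene, which can exceed the length of the transcripts present, and means and SDs are over the 12 libraries. Pcna, the sliding clamp of DNA polymerases, stood highest at 233 ± 24.3 CPM per kb (SD, n = 12), followed by Ccne2, 1 of the 2 cyclins E that drive entry into S phase, at 166 ± 39.7. The other cyclin E, Ccne1, was the lowest S phase gene at 8.31 ± 1.27 CPM per kb. The ratio of Ccne2 to Ccne1 per kb had a median of 21.6 over the libraries, with a range from 8.66 in Tet1KO replicate 2 of 11 months to 33.2 in WT replicate 3 of 3 months. Of the exon bases of Ccne2, 17.4% overlap Ints8 on the opposite strand, and counting without strand cannot separate them there.

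The 6 MCM subunits form a single ring in equal numbers, yet their transcripts differed per kb. Mcm4 led at 51.6 ± 4.18 CPM per kb (SD, n = 12), ahead of Mcm5 at 41.6 ± 5.58 and Mcm6 at 41.1 ± 5.11, which did not differ beyond their spread. Mcm3 stood at 27.7 ± 3.63, and Mcm2 and Mcm7 lay together at 20.5 ± 2.85 and 20.4 ± 2.72. Mcm4 exceeded Mcm2 in every library, by 2.12 to 3.35 times per kb, with merged exons of 3589 bases for Mcm4 and 6956 for Mcm2. Before the division by length they were closer, at 160 to 215 CPM for Mcm4 and 102 to 169 CPM for Mcm2. Of the helicase partners, Cdc45 stood at 55.7 ± 8.63 CPM per kb and Gins2, a GINS subunit, at 37.8 ± 5.76. The loader Cdc6 was lower at 12.9 ± 1.7. Of the exon bases of Gins2, 67.3% lie under Gse1 on the opposite strand, so its level is uncertain.

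Ribonucleotide reductase, which makes deoxynucleotides, has a large subunit Rrm1 and a small subunit Rrm2. Rrm2 stood at 64.2 ± 10.7 CPM per kb and Rrm1 at 15.4 ± 1.54 (SD, n = 12), a ratio of 2.77 to 5.42 in each library. This ratio follows the merged exon lengths, 11012 bases for Rrm1 and 2771 for Rrm2: before the division by length Rrm1 ran from 137 to 189 CPM and Rrm2 from 129 to 230 CPM. Tyms, which makes thymidylate, lay at 22.8 ± 2.55 CPM per kb. Its annotated exons, 6089 bases in all, include repeats of up to 361 aligned bases shared with many other genes. Counts over these repeats are uncertain, and whether fragments were gained or lost there was not tested.

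In mitosis the cyclins led per kb. Ccnb2 was highest at 107 ± 16.7 CPM per kb (SD, n = 12), then Ccna2, which serves both S phase and G2, at 68.9 ± 4.26 and Ccnb1 at 52.5 ± 12.9. Per kb, Ccnb1 stayed below Ccnb2 in every library, at 0.375 to 0.637 times its level. This order follows the merged exon lengths, 4217 bases for Ccnb1 and 1531 for Ccnb2. Before the division by length Ccnb1 was above Ccnb2 in every library, at 145 to 325 CPM against 135 to 222 CPM. For Cdk1 the merged exons came to 4934 bases. Their kinase partner Cdk1 lay far below them at 9.08 ± 1.87 CPM per kb. Near copies of Ccnb1 exist in the genome: the pseudogene Ccnb1-ps is 99.2% identical over the aligned bases, but it took 369 counts over the 12 libraries against 33530 for Ccnb1.

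Of the kinases that run mitosis, Plk1 was the lowest of the 35 genes at 6 ± 2.17 CPM per kb (SD, n = 12). Aurka, the centrosomal Aurora kinase, stood at 12.9 ± 7.23, and Aurkb, the kinase of the chromosomal passenger complex, at 11.1 ± 2.58. Birc5, the survivin subunit of the same complex, was higher than Aurkb at 52.1 ± 7.52. The checkpoint kinases Bub1 and Bub1b differed from each other, at 42.9 ± 4.85 and 8.23 ± 1.6. For the anaphase-promoting complex, the activator Cdc20 lay at 28.1 ± 6.49 and the ubiquitin carrier Ube2c at 33.5 ± 4.09, the latter with 22.8% of its exon bases under Tnnc2 on the opposite strand.

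At the centromere, the histone variant Cenpa stood at 48.1 ± 10.1 CPM per kb (SD, n = 12), above the kinetochore motor Cenpe at 11.2 ± 1.59 and the kinetochore protein Cenpf at 13.9 ± 1.81. The spindle genes all stood below Cenpa: the motor Kif11 at 14.4 ± 2.15, the microtubule nucleator Tpx2 at 9.95 ± 0.79 and Nusap1, a microtubule bundler, at 18.2 ± 3.05. Top2a, which untangles sister DNA, lay at 24.2 ± 3.59. Mki67, the proliferation antigen Ki-67 that coats mitotic chromosomes, stood at 8.83 ± 1.72, its long exons giving 66.3 to 130 CPM before the division by length.

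**Figure D2:**
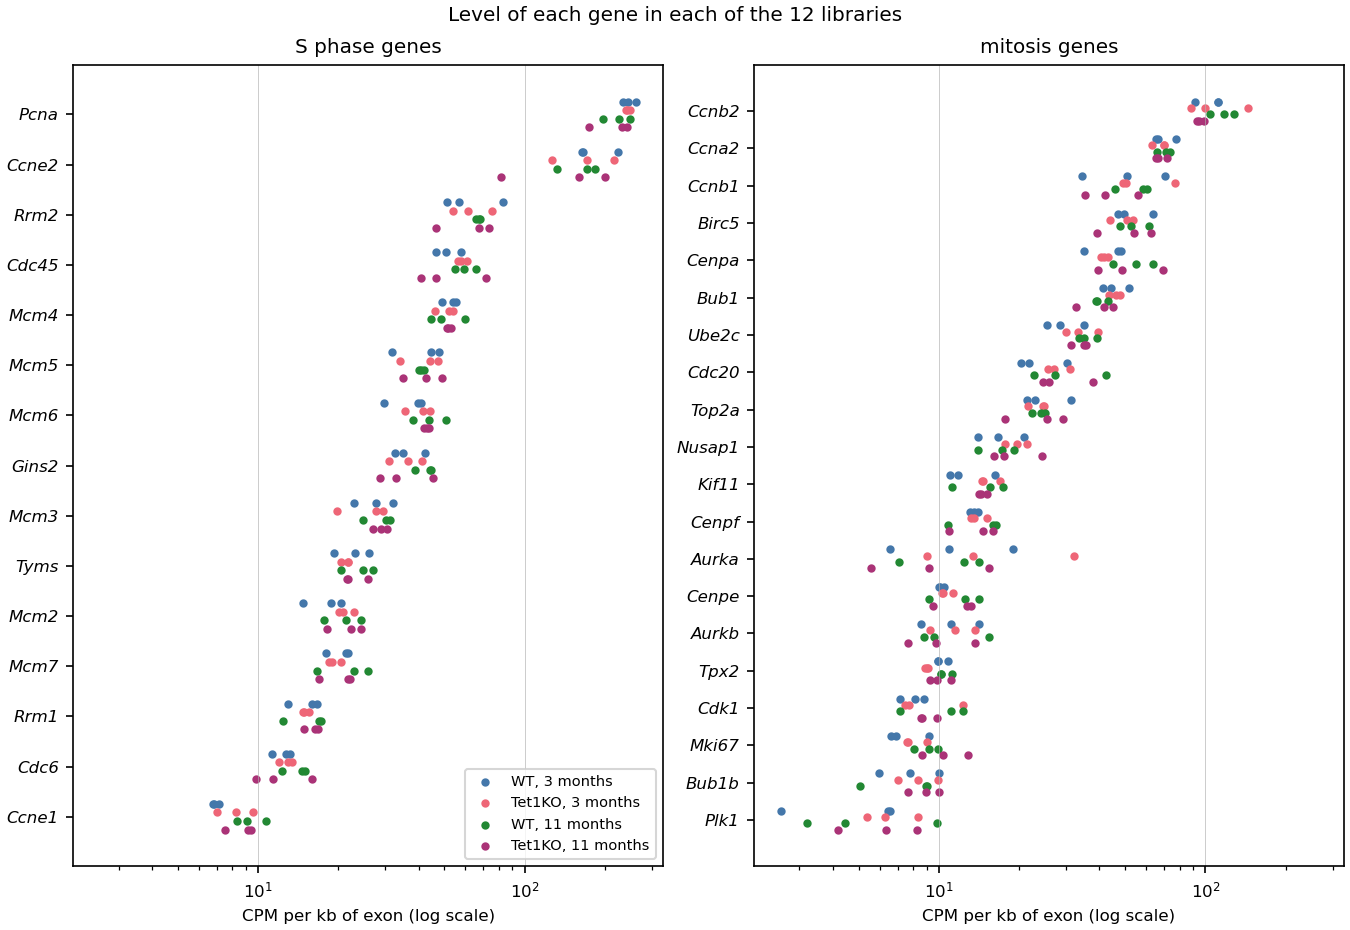
Level of each gene in each of the 12 libraries (x axis, CPM per kb of exon, log scale), S phase genes left and mitosis genes right, ordered by mean; each point is a library, coloured by group. Pcna is highest at a mean of 233 and Plk1 lowest at 6, and the 4 groups overlap along most rows.

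Most of the genes kept a narrow range. The median SD within groups was 0.227 on the log2 CPM scale for the 35 genes and 0.25 for the 8067 tested genes with an average log2 CPM of at least 4. Ccna2 varied least, by 1.23 times between its highest and lowest library. Its levels were 266, 317 and 271 CPM in WT and 285, 258 and 285 CPM in Tet1KO at 3 months, and 268, 292 and 301 CPM in WT and 271, 293 and 267 CPM in Tet1KO at 11 months. The 4 groups overlapped. Mcm4 and Rrm1 varied least among S phase genes. Mcm4 had 176, 199 and 194 CPM in WT and 187, 166 and 194 CPM in Tet1KO at 3 months, then 160, 215 and 174 CPM and 183, 185 and 191 CPM at 11 months. For Rrm1 the same order gave 143, 176 and 183 CPM, 164, 161 and 171 CPM, 137, 189 and 187 CPM, and 164, 185 and 180 CPM. In both genes the lowest library was a WT library of 11 months (replicate 1), and the groups overlapped.

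Aurka varied most, by 5.79 times. It stood at 48.2, 27.7 and 16.6 CPM in WT and 22.8, 81.2 and 34 CPM in Tet1KO at 3 months. At 11 months it stood at 18, 31.5 and 35.7 CPM in WT and 23.2, 39 and 14 CPM in Tet1KO. Its 3 highest libraries, Tet1KO replicate 2 and WT replicate 1 of 3 months and Tet1KO replicate 2 of 11 months, came from 3 different groups. Plk1 varied by 3.83 times, with 14.2, 14.5 and 5.63 CPM in WT and 11.9, 18.4 and 13.8 CPM in Tet1KO at 3 months and 7.07, 21.6 and 9.76 CPM in WT and 9.24, 18.2 and 14 CPM in Tet1KO at 11 months. Replicate 2 was the highest of the 3 libraries in each group, and the groups overlapped.

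Among S phase genes Ccne2 and Rrm2 varied most. Ccne2 gave 572, 575 and 784 CPM in WT and 600, 443 and 756 CPM in Tet1KO at 3 months, then 641, 460 and 596 CPM in WT and 699, 284 and 560 CPM in Tet1KO at 11 months. Tet1KO replicate 2 of 11 months stood lowest, and all groups overlapped. Rrm2 gave 142, 157 and 230 CPM in WT and 169, 149 and 209 CPM in Tet1KO at 3 months, and 187, 188 and 182 CPM in WT and 204, 129 and 187 CPM in Tet1KO at 11 months. Its lowest library was again Tet1KO replicate 2 of 11 months.

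**Figure D3:**
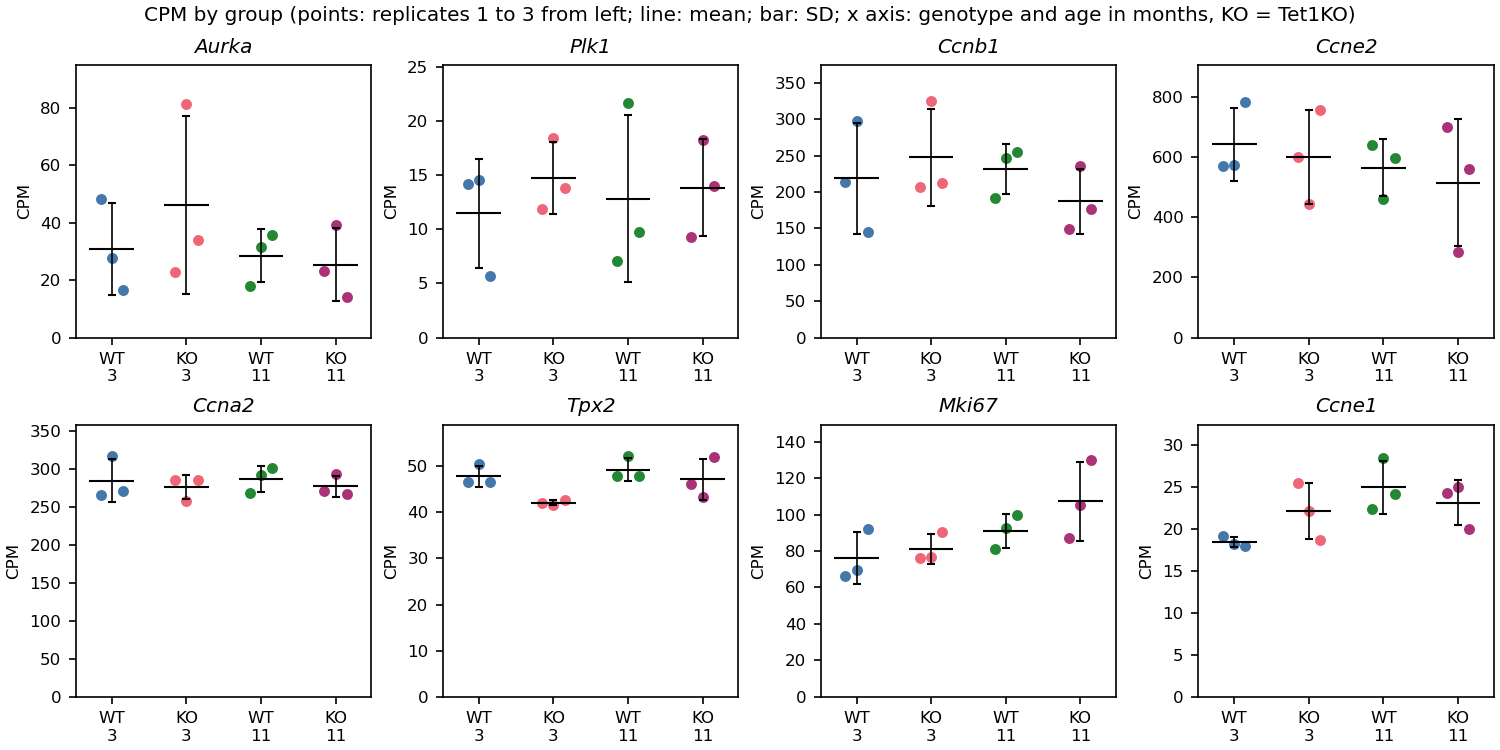
Level in CPM (y axis, from 0) of 8 genes by group (x axis, genotype and age in months); points are replicates 1 to 3 from left, lines are means and bars are SD (n = 3). Aurka reaches 81.2 CPM in 1 Tet1KO library of 3 months, while Ccna2 stays between 258 and 317 CPM in all 12.

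The first comparison asked whether loss of Tet1 alters these genes at 3 months. No change was detected in any of the 35: edgeR's quasi-likelihood test called 0 genes of the list and 0 of the 19815 genes tested (0%) at a Benjamini-Hochberg adjusted p under 0.05. At an unadjusted p under 0.05 the counts were 0 of 35 and 225 genes (1.14% of those tested). DESeq2 called 2 genes and limma-voom 0, none of them in the list, and both gave 0 of the 35 an unadjusted p under 0.05. S phase genes had a median log2 fold change of -0.02 and mitosis genes of 0.09, beside -0.02 for all genes tested. By sign, 21 of the 35 were higher and 14 lower in Tet1KO, beside 9282 higher and 10533 lower of all genes tested. Where no scaling factor was used, 28 of the 35 were higher. All 35 were read in the same libraries, so counts by sign, here and below, are not 35 separate results.

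The 95% interval of each gene reflects the spread among these libraries only, and it was not adjusted for the number of genes. In 33 of 35 the 95% interval of the Tet1KO to WT difference at 3 months stayed within 2-fold either way, and in 23 within 1.5-fold. The share within 2-fold was 46.5% for all genes tested and 86.4% for the 8665 genes at least as abundant as the lowest member. The 2 exceptions were Aurka, with a log2 fold change of 0.58 (-0.62 to 1.78), and Plk1, with 0.36 (-0.64 to 1.36).

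Tpx2 was the only gene of the list whose groups did not overlap at 3 months, where 6.94% of all genes did not. It stood at 46.5, 50.4 and 46.6 CPM in WT and 42.1, 41.5 and 42.6 CPM in Tet1KO, so every Tet1KO library was lower. The difference was small, with a log2 fold change of -0.19 ± 0.12 (SE, edgeR unadjusted p = 0.143). Ccne1 stood at 19.1, 18.2 and 18 CPM in WT and 25.4, 22.1 and 18.7 CPM in Tet1KO, a log2 difference of 0.26 ± 0.17 with overlapping groups (edgeR unadjusted p = 0.16). Mcm2, the MCM subunit used as a proliferation marker, gave 102, 143 and 131 CPM in WT and 159, 140 and 145 CPM in Tet1KO (log2 difference 0.24 ± 0.17). The low WT value of Mcm2 was that of replicate 1, and at 11 months Mcm2 gave 123, 169 and 148 CPM in WT and 126, 169 and 155 CPM in Tet1KO.

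The other genes with the smallest p at 3 months also overlapped between genotypes. Ube2c stood at 74.3, 91.3 and 66.4 CPM in WT and 78.3, 103 and 86.3 CPM in Tet1KO (log2 difference 0.20 ± 0.15). Tyms gave 117, 141 and 159 CPM in WT and 132, 133 and 124 CPM in Tet1KO, with a log2 difference of -0.10 ± 0.15. Mcm3 gave 86.3, 104 and 120 CPM in WT and 104, 73.8 and 110 CPM in Tet1KO, with a log2 difference of -0.11 ± 0.17. Their edgeR unadjusted p-values ran from 0.2 to 0.538.

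Some values at 3 months moved with the libraries in the fit. Without WT replicate 1 and Tet1KO replicate 2 of 3 months, an alternative chosen after seeing the data, the log2 difference of Aurka was 0.36 in place of 0.58 and that of Ccnb1 was -0.08 in place of 0.18. Without Tet1KO replicate 2 alone, Aurka had a log2 difference of -0.12, so its sign depended on which of these 2 libraries were in the fit. Over all alternatives its value ran from -0.12 to 1.06. The library codes in the labels start with AK, or with DY for WT replicate 2 and Tet1KO replicate 1 of 3 months. Within the AK libraries, also chosen after seeing the data, the values were 0.85 for Aurka, 0.60 for Ccnb1 (edgeR unadjusted p = 0.0642) and -0.12 for Tpx2. Ube2c had 0.45 ± 0.17 there (edgeR unadjusted p = 0.0227), in place of 0.20, the only value of the list with an unadjusted p under 0.05 in that fit. The labels do not say what the codes stand for. The summed level of 8 Sertoli cell markers ran from 59.6 to 167 CPM in WT and from 16.6 to 48.6 CPM in Tet1KO at 3 months, with the defining marker Sox9 at 0.134 to 3.86 and 0.192 to 0.755 CPM, and the part of these cells in the genotype values was not tested.

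At 11 months the same question gave the same count. No gene of the list and 0 of 19815 genes (0%) passed an adjusted p under 0.05 in edgeR, and 0 of 35 against 326 genes (1.65%) had an unadjusted p under 0.05. DESeq2 called 3 genes and limma-voom 0, with 0 of the list in both. The median log2 difference was -0.07 for S phase and -0.05 for mitosis genes, beside 0.02 for all genes. By sign, 10 of the 35 were higher and 25 lower in Tet1KO, beside 10655 higher and 9158 lower of all genes tested. For 33 of 35 genes the 95% interval stayed within 2-fold, beside 48% of all genes tested and 88.8% of the genes at least as abundant. It stayed within 1.5-fold for 22. Plk1 and Aurka were again the exceptions. The summed level of 6 peritubular myoid markers ran from 71.4 to 241 CPM in WT and from 22.9 to 54.9 CPM in Tet1KO at 11 months (Tpm2 was at 0 in Tet1KO replicate 1), and its part in the values was not tested.

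Ccnb2 was the gene of the list whose groups did not overlap at 11 months, where 5.36% of all genes did not. It stood at 159, 178 and 195 CPM in WT and 142, 152 and 144 CPM in Tet1KO, a log2 difference of -0.28 ± 0.18 (SE, edgeR unadjusted p = 0.141). At 3 months Ccnb2 had 170, 169 and 140 CPM in WT and 153, 222 and 135 CPM in Tet1KO, and the order of the groups was not kept there. Its paralog Ccnb1 gave 192, 247 and 255 CPM in WT and 149, 236 and 177 CPM in Tet1KO at 11 months (log2 difference -0.30 ± 0.27). At 3 months Ccnb1 had 214, 297 and 145 CPM in WT and 207, 325 and 212 CPM in Tet1KO. Ccnb1 overlapped between genotypes at both ages. With same-numbered libraries of 11 months taken as pairs, both cyclins B were lower in Tet1KO in 3 of 3 pairs. Because the Ccnb2 groups did not overlap, any pairing gives that result for Ccnb2. The pairs were themselves taken from these data, and no share of all genes with 3 of 3 is given for comparison. Neither cyclin B was called with the pairs as a block, and nothing is read from the pairs.

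Gins2 gave 183, 159 and 181 CPM in WT and 186, 118 and 135 CPM in Tet1KO at 11 months, with a log2 difference of -0.25 ± 0.18. On the higher side, Mki67 stood at 81, 92.4 and 99.7 CPM in WT and 87, 105 and 130 CPM in Tet1KO (log2 difference 0.24), and without Tet1KO replicate 3 its difference was 0.07. Nusap1 gave 56.8, 69.9 and 77.4 CPM in WT and 98.7, 65.3 and 71 CPM in Tet1KO, a log2 difference of 0.20 ± 0.20. The high Nusap1 value was that of Tet1KO replicate 1 alone. Bub1b gave 21.7, 38.3 and 38.6 CPM in WT and 32.8, 38.4 and 42.9 CPM in Tet1KO, a log2 difference of 0.21 ± 0.25. Here the low value was WT replicate 1. The edgeR unadjusted p-values of these 4 genes ran from 0.199 to 0.423, and the genotypes overlapped in all 4. Taken as pairs in the same way, Mki67 and Bub1b were higher in Tet1KO in 3 of 3 pairs, Bub1b by only 38.4 against 38.3 CPM in replicate 2. Neither was called with the pairs as a block, and nothing is read from the pairs here either.

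**Figure D4:**
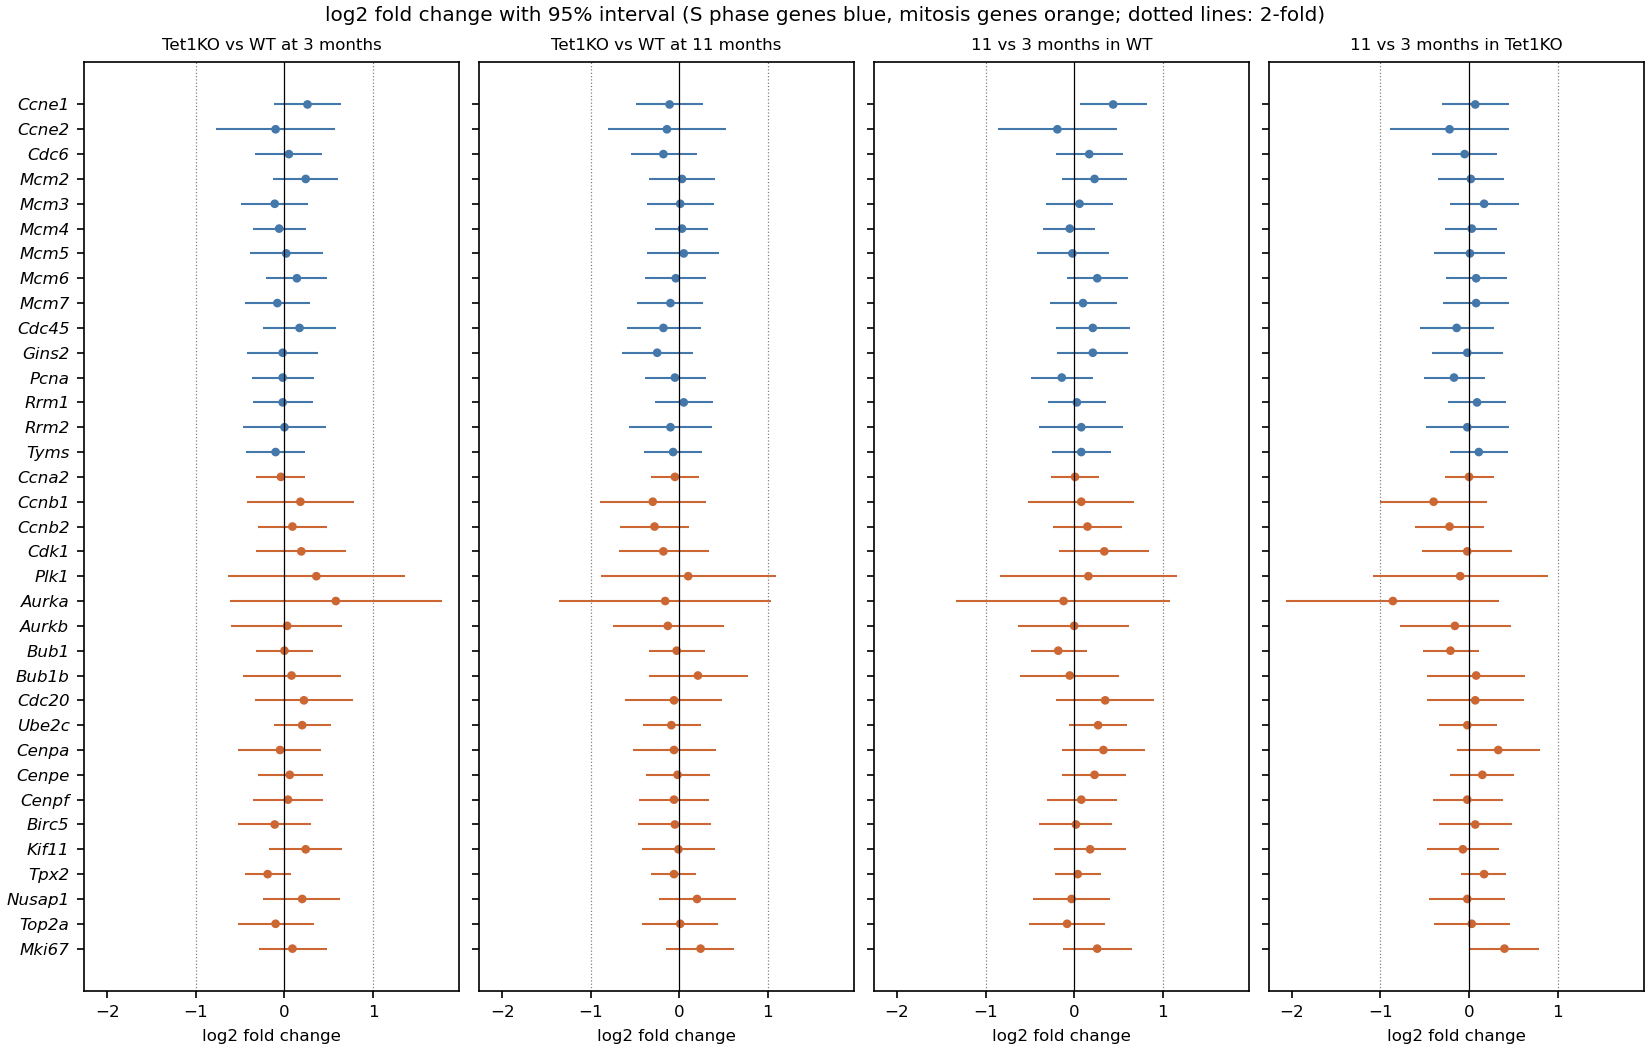
Log2 fold change (x axis) of each of the 35 genes with its 95% interval from edgeR in 4 comparisons, S phase genes in blue and mitosis genes in orange; dotted lines mark 2-fold. Most intervals lie between the dotted lines, and those of Aurka and Plk1 cross them in every panel.

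Age was compared within each genotype. In WT, edgeR called 0 of 35 genes of the list and 0 of 19815 (0%), and at an unadjusted p under 0.05 the counts were 1 and 1124 (5.67%). DESeq2 and limma-voom called 0 genes each. The median log2 difference, 11 against 3 months, was 0.08 for S phase and 0.08 for mitosis genes, against -0.06 for all genes. Of the 35, 25 were higher and 10 lower at 11 months, beside 8646 higher and 11166 lower of all genes tested. With no scaling factor, 29 of the 35 were higher. The 95% interval stayed within 2-fold for 33 of 35, beside 44.4% of all genes and 83.5% of those at least as abundant, and within 1.5-fold for 17.

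The 1 gene of the list with an unadjusted p under 0.05 in WT was Ccne1. It stood at 19.1, 18.2 and 18 CPM at 3 months and 22.3, 28.4 and 24.1 CPM at 11 months, with no overlap, where 11.5% of all genes did not overlap. The log2 difference was 0.44 ± 0.17 (SE; 95% interval 0.06 to 0.82; edgeR unadjusted p = 0.0275, adjusted p = 0.774). Without the 2 libraries of 3 months that stood apart it was 0.46 (edgeR unadjusted p = 0.0592), and within the AK libraries 0.47 (edgeR unadjusted p = 0.0494). In Tet1KO the log2 difference of Ccne1 with age was 0.07, with 25.4, 22.1 and 18.7 CPM at 3 months and 24.3, 25 and 20 CPM at 11 months. The test of the difference between these age effects gave -0.37 ± 0.25 (edgeR unadjusted p = 0.157), and it was not past the threshold.

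Other S phase genes in WT overlapped between ages. Mcm6 gave 139, 191 and 185 CPM at 3 months and 178, 237 and 203 CPM at 11 months, a log2 difference of 0.26 ± 0.16. Pcna gave 563, 586 and 628 CPM at 3 months and 542, 471 and 598 CPM at 11 months, a difference of -0.14 ± 0.16. Tet1KO had similar Pcna levels, 583, 573 and 596 CPM at 3 months and 557, 419 and 584 CPM at 11 months. Ccne2, unlike Ccne1, had a negative value of -0.19 ± 0.31. Among mitosis genes Ube2c gave 87.3, 90.9 and 102 CPM at 11 months, a log2 difference of 0.27 ± 0.15 from 3 months (edgeR unadjusted p = 0.0956). Within the AK libraries this difference was 0.45 ± 0.15 (edgeR unadjusted p = 0.0155). Bub1 gave 193, 180 and 225 CPM at 3 months and 188, 169 and 171 CPM at 11 months, a difference of -0.18 ± 0.14. For Cdk1 the values were 43.3, 40 and 35.3 CPM at 3 months and 35.2, 60.6 and 54.6 CPM at 11 months, a difference of 0.34 ± 0.23 in which replicate 1 of 11 months was as low as the 3-month libraries. In Tet1KO Cdk1 gave 36.7, 60.5 and 38.1 CPM at 3 months and 48.5, 42.5 and 42.2 CPM at 11 months.

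In Tet1KO, edgeR likewise called 0 of 35 and 0 of 19815 genes (0%) with age, with 1 and 462 (2.33%) at an unadjusted p under 0.05. DESeq2 called 5 genes, none in the list, and limma-voom 0. Medians were 0.02 for S phase and -0.02 for mitosis genes, beside -0.01 for all genes. By sign, 18 of the 35 were higher and 17 lower, beside 9518 higher and 10295 lower of all genes tested. The 95% interval stayed within 2-fold for 32 of 35, beside 46.6% of all genes and 87% of those at least as abundant, and within 1.5-fold for 25. Ccnb1 joined Plk1 and Aurka as exceptions, with a log2 difference of -0.40 ± 0.27.

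Mki67 had the smallest p with age in Tet1KO. It stood at 76.2, 76.8 and 90.5 CPM at 3 months and 87, 105 and 130 CPM at 11 months, so the ages overlapped by 1 library on each side. The log2 difference was 0.40 ± 0.18 (SE, edgeR unadjusted p = 0.0432, adjusted p = 1). Without the libraries that stood apart it was 0.36 (edgeR unadjusted p = 0.102), and without Tet1KO replicate 3 of 11 months 0.24. In WT Mki67 gave 66.3, 69.6 and 92.3 CPM at 3 months against 81, 92.4 and 99.7 CPM at 11 months, also higher on average and also overlapping.

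Tpx2 was the only gene of the list whose ages did not overlap in Tet1KO, where 6.2% of all genes did not. It had 42.1, 41.5 and 42.6 CPM at 3 months and 46.1, 43.4 and 52 CPM at 11 months (log2 difference 0.17 ± 0.12). This comparison shares the 3-month Tet1KO libraries with the genotype comparison in which Tpx2 was lower. In WT Tpx2 kept 47.8, 52.2 and 47.8 CPM at 11 months, close to its 3-month values. Cenpa gave 253, 243 and 239 CPM at 3 months and 232, 284 and 407 CPM at 11 months in Tet1KO, a log2 difference of 0.33 ± 0.21. In WT the same gene gave 205, 282 and 276 CPM and 323, 264 and 373 CPM, again 0.33 ± 0.21. Replicate 3 was the highest at 11 months in both genotypes.

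The lowest value with age in Tet1KO was that of Aurka, -0.86 ± 0.55 (95% interval -2.07 to 0.34; edgeR unadjusted p = 0.142). Without Tet1KO replicate 2 and WT replicate 1 of 3 months it was -0.17, and within the AK libraries -1.17. Bub1 gave 201, 189 and 208 CPM at 3 months and 196, 142 and 181 CPM at 11 months (log2 difference -0.21 ± 0.14), with the low value in replicate 2. For Ccnb1 the value without the libraries that stood apart was -0.16 in place of -0.40.

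The genotype by age term asked whether the Tet1KO to WT difference at 11 months departed from that at 3 months. It was past the adjusted threshold for 0 of 35 and 0 of 19815 genes (0%) in edgeR, and at an unadjusted p under 0.05 for 0 of 35 and 311 genes (1.57%). DESeq2 and limma-voom called 0 genes each. The smallest p-values on the negative side were those of Ccne1, Ccnb2 at -0.37 ± 0.25 and Ube2c at -0.29 ± 0.21, and on the positive side Tpx2 at 0.12 ± 0.17, Mki67 at 0.14 and Mcm3 at 0.12 ± 0.25. Of the 35 terms, 11 were positive and 24 negative, beside 11008 positive and 8807 negative of all genes tested. With no scaling factor, 7 of the 35 were positive. The median was -0.03 for S phase and -0.09 for mitosis genes, beside 0.06 for all genes. This term was measured less precisely: its 95% interval stayed within 2-fold for 29 of 35 genes, beside 31% of all genes and 66.1% of those at least as abundant. The AK libraries alone, chosen after seeing the data and fewer at 3 months, gave Ccnb1 a term of -0.92 ± 0.37 (edgeR unadjusted p = 0.0335) in place of -0.49 ± 0.39. Ube2c had a term of -0.55 ± 0.21 there (edgeR unadjusted p = 0.029) in place of -0.29. The AK values of Ube2c for this term, at 3 months and with age in WT are not separate results. All use the same 3-month WT libraries, at 74.3 and 66.4 CPM, without replicate 2 at 91.3 CPM.

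The remaining members varied over modest ranges in CPM, with overlapping groups in every comparison. Cdc6 ran from 51.5 to 82.9 CPM, Mcm5 from 127 to 195, Mcm7 from 74 to 115 and Cdc45 from 91.6 to 161. In mitosis, Aurkb ran from 22.5 to 45.4 CPM and Cdc20 from 38 to 78.8. Cenpe ran from 79.3 to 122 CPM, Cenpf from 167 to 253, Birc5 from 133 to 216, Kif11 from 52.9 to 83.9 and Top2a from 159 to 283. The highest Cdc20 libraries were WT and Tet1KO replicate 2 of 11 months.

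Beyond the 35 members, 30 further S phase genes (origin recognition, polymerase, clamp loading and histone chaperone genes among them) and 36 further mitosis genes were read from the same fit. All passed the filter, and 0 were called in any of the 5 comparisons. At 3 months the separase gene Espl1, whose protein cuts cohesin at anaphase, stood at 36.3, 39.7 and 34.5 CPM in WT and 31.1, 26.4 and 23.7 CPM in Tet1KO, a log2 difference of -0.45 ± 0.16 (edgeR unadjusted p = 0.0158, adjusted p = 1). At 11 months Espl1 overlapped between genotypes, with 30.5, 29.2 and 37.9 CPM in WT and 30.4, 34.3 and 32.5 CPM in Tet1KO.

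With age in WT, Rfc2, a subunit of the clamp loader that places Pcna on DNA, gave 101, 133 and 123 CPM at 3 months and 157, 193 and 175 CPM at 11 months. Its log2 difference was 0.56 ± 0.15 (edgeR unadjusted p = 0.0029, adjusted p = 0.774). Rpa2, a subunit of the protein that coats single-stranded DNA, gave 209, 276 and 213 CPM and then 278, 405 and 316 CPM, a log2 difference of 0.52 ± 0.18. In Tet1KO the ages overlapped for both, and Rfc2 had 138, 142 and 142 CPM at 3 months and 157, 156 and 121 CPM at 11 months. The genotype by age term was -0.51 ± 0.21 for Rfc2 and -0.59 ± 0.26 for Rpa2 (edgeR unadjusted p = 0.0303 and 0.0419, adjusted p = 1 for both). Of the 30 other S phase genes, 3 had an unadjusted p under 0.05 with age in WT, all higher at 11 months, beside 5.67% of all genes tested, and nothing is read from this count.

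In the remaining comparisons the 2 smallest p-values belonged to Rfc2 beside Espl1 at 3 months (log2 difference 0.24 ± 0.15), to the histone chaperone subunit Chaf1a and the centromere protector Sgo1 at 11 months, and to Ndc80 and Kif2c with age in Tet1KO. Chaf1a gave 14.8, 24 and 21.3 CPM in WT and 24.6, 31.4 and 28.3 CPM in Tet1KO at 11 months, a log2 difference of 0.49 ± 0.23 (edgeR unadjusted p = 0.0511). Sgo1 gave 65, 57.8 and 61.6 CPM in WT and 46.3, 48.6 and 60 CPM in Tet1KO, a difference of -0.25 ± 0.13. Ndc80, of the outer kinetochore, and the microtubule depolymerase Kif2c differed with age in Tet1KO by -0.26 ± 0.14 and 0.31 ± 0.18.

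The 12 libraries differed in the balance of S phase and mitosis genes in ways that crossed the groups. The S phase mean (log2 CPM over 15 genes) was 7.15 ± 0.16 in WT and 7.17 ± 0.11 in Tet1KO at 3 months and 7.25 ± 0.09 and 7.17 ± 0.12 at 11 months (SD, n = 3 each). The mitosis mean over 20 genes was 6.38 ± 0.13 and 6.48 ± 0.13 at 3 months and 6.48 ± 0.23 and 6.44 ± 0.08 at 11 months. The spread within groups exceeded most of the differences between them. Mitosis minus S phase ran from -1.04 in WT replicate 3 to -0.41 in Tet1KO replicate 2, both of 3 months.

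The lowest S phase means were those of WT replicate 1 of 3 months (6.97), Tet1KO replicate 2 of 3 months (7.04) and Tet1KO replicate 2 of 11 months (7.05). The same 3 libraries had the highest means of 5 pachytene to round spermatid markers, at 7.14, 6.91 and 5.30 log2 CPM against 3.61 to 5.18 in the other 9. They were also the 3 highest in Aurka. In summed level the 5 markers, each with counts in every library, ran from 256 to 1980 CPM in WT and 194 to 2000 CPM in Tet1KO at 3 months, and from 248 to 291 and 248 to 499 CPM at 11 months. The 6 elongating spermatid markers ordered the libraries differently: they were highest in WT replicate 1 of 3 months (8.04 log2 CPM), WT replicate 1 of 11 months (7.71) and Tet1KO replicate 1 of 11 months (7.62). The latter pair had S phase means of 7.14 and 7.29, at ranks 4 and 11 from the lowest of the 12 libraries. Their Aurka levels were 18 and 23.2 CPM. The part of later cells in the S phase and Aurka values was not tested.

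The lowest mitosis means were those of WT replicate 1 of 11 months (6.22), WT replicate 3 of 3 months (6.23) and Tet1KO replicate 1 of 11 months (6.36). The same 3 libraries were lowest in Plk1, which is 1 of the 20 genes in that mean and so not a separate observation. These libraries, with Tet1KO replicate 3 of 3 months, held the 4 lowest means of 9 undifferentiated spermatogonia markers, at 3.11, 3.43, 3.34 and 3.36 log2 CPM. All 9 markers had counts in every library, and their summed level ran from 137 to 222 CPM in WT and 173 to 276 CPM in Tet1KO at 3 months and from 147 to 242 and 137 to 289 CPM at 11 months. Tet1KO replicate 2 of 11 months, lowest in Ccne2, had the lowest mean of 7 meiotic prophase markers, 6.32 against 7.12 to 7.71 elsewhere. It also had the highest mean of 11 leukocyte markers (5.36) and the lowest of 4 germ cell markers (9.18). WT replicate 2 of 11 months had the highest S phase and mitosis means (7.32 and 6.64) and the lowest leukocyte mean (1.81). The next lowest leukocyte mean, 3.8 in Tet1KO replicate 1 of 3 months, went with S phase and mitosis means of 7.22 and 6.41. These patterns were picked out after the values were seen, and the part of stage composition or of leukocytes in them was not tested.

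**Figure D5:**
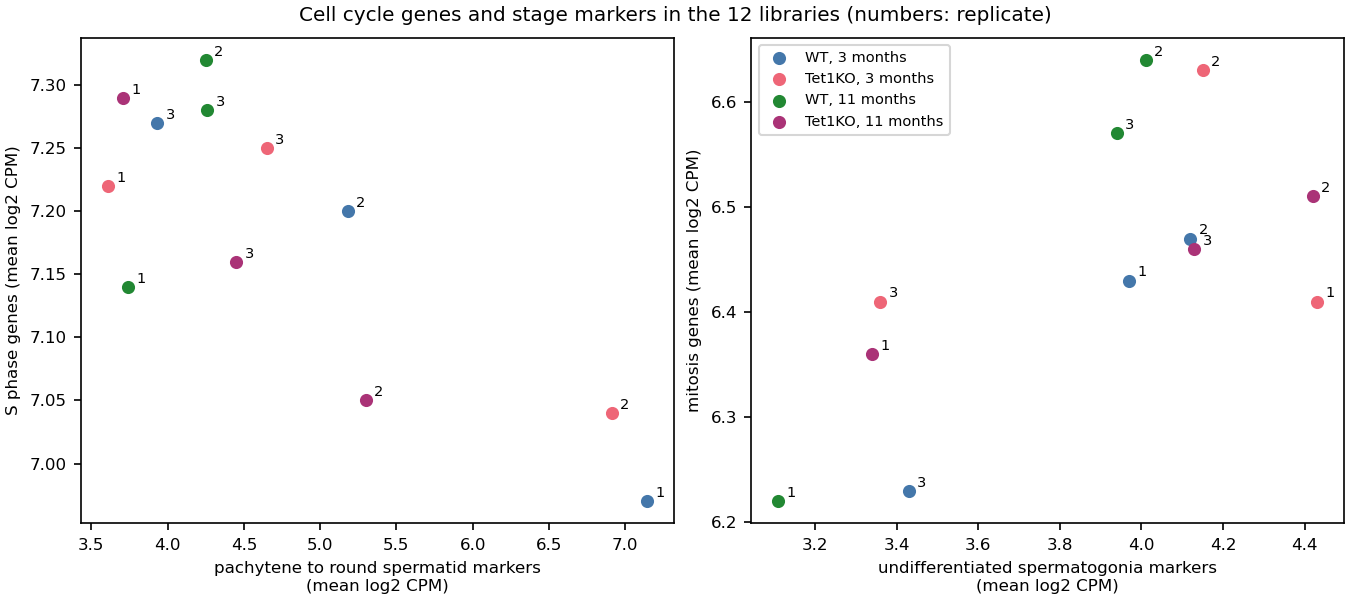
Mean log2 CPM of the 15 S phase genes (left, y axis) against 5 pachytene to round spermatid markers (x axis), and of the 20 mitosis genes (right) against 9 undifferentiated spermatogonia markers; each point is a library, coloured by group and numbered by replicate. The 3 lowest S phase means (6.97, 7.04 and 7.05) are those of the 3 libraries highest in these 5 markers.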

How the data were processed

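The authors deposited raw counts per gene for 12 libraries. They come from featureCounts 1.6.2 and GENCODE vM17, per the file headers, with fragments of mapping quality 30 or more, no strand, and multimapping or multiply overlapping fragments counted for each gene. HISAT2, SAMtools and build mm10 are named in the submitters' processing notes (versions not given in the sources used here). Symbols came from GENCODE vM21 (53620 of 53715 genes matched). Overlaps and exon lengths are from the deposited table, near copies from aligned vM21 transcripts.

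In R 4.3.3, genes passing filterByExpr (19815) were scaled with TMM and tested with edgeR 4.0.16 (robust quasi-likelihood F test, two-sided, all 12 libraries, 1 mean per group, Benjamini-Hochberg at 0.05 over all genes). Intervals (95%) used each gene's SE, derived from F. List means used a prior count of 2. DESeq2 1.42.0 and limma 3.58.1 (voom with sample weights) were alternatives, beside other scalings and filters, removal of mitochondrial and ribosomal protein genes, fits of the compared groups alone, the replicate block, an adjusted p of 0.01 and leaving out single libraries. The procedure was tested on simulated counts.

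With 0 counts, up to 3 remain possible, or 0.165 to 0.36 CPM in these libraries (counting error only, reads carry no molecular identifiers). Pairs of replicates differed beyond counting noise (chi-square per degree of freedom 10.9 to 55.5). At 11 months same-numbered WT and Tet1KO libraries deviated together (correlations 0.371, 0.167 and 0.332), and the numbers were taken as pairs there from the data alone. At 3 months they were -0.589, -0.182 and 0.296.

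The members and gene lists were chosen with earlier results of these data known. Genes given library by library were, in each comparison, the 3 members with the smallest p in each direction, the highest and lowest per kb in each phase, the widest and narrowest 2 in spread in each phase, and Mki67, Pcna, Ccnb1, Cdk1 and Mcm2. Of the other pathway genes, the 2 with the smallest p in each comparison were named.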

Additional observations from a re-analysis of the deposited data

How the results depend on the processing

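Under every alternative run (scalings, filters, tools, leave-one-out, replicate block, adjusted p at 0.01), 0 of the 35 genes were called in each of the 5 comparisons. DESeq2 alone called other genes: 2 at 3 months and 3 at 11 months between genotypes and 5 with age in Tet1KO. The replicate block, a paired fit, gave 0 calls and 0 genes of the list with an unadjusted p under 0.05 in both genotype comparisons. It moved that count from 1 to 3 with age in WT and from 0 to 1 for the genotype by age term. Leaving out single libraries moved the same count from 0 to as many as 2 at 3 months and 3 at 11 months (without Tet1KO replicate 1), from 1 to between 0 and 3 in both age comparisons, and from 0 to as many as 2 for the genotype by age term. At 3 months and across ages the libraries share only a number.

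The median of mitosis genes with age in WT was 0.23 within the AK libraries, chosen after seeing the data, and ran from 0.02 to 0.23 with each library left out. For the genotype by age term, leaving out each library gave medians from -0.25 to 0.04 for S phase and from -0.28 to 0.00 for mitosis genes. WT replicate 1 of 11 months gave the far values of the mitosis medians, and WT replicate 3 of 3 months that of the S phase term. The cause was not tested. With 3 libraries a group, the 95% intervals of Aurka and Plk1 reached past 2-fold in every comparison, as did those of Ccnb1 with age in Tet1KO and of Ccnb1, Cdk1, Aurkb and Cdc20 for the genotype by age term.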
